A study of Homo sapiens with 18 samples.

Results

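The genes of fatty acid synthesis and desaturation are described here in RKO cells, an established human colorectal carcinoma line, after depletion of ESCRT-I. They were chosen by gene name and comprise 9 of the 20802 gene targets counted in each library. ACLY, ACSS2 and ME1 supply acetyl-CoA and NADPH, ACACA and FASN build palmitate from them, and ELOVL6, SCD, FADS1 and FADS2 lengthen and desaturate fatty acids. Of the 9 genes, 6 could be tested, as their counts over all libraries added up to more than 100. ME1 (0 counts in all libraries), FADS1 (20 counts in all) and ACSS2 (49 counts in all) could not. The 20 enzymes of cholesterol synthesis, called the sterol arm here, were the comparison, and 19 of them could be tested.

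The study asked which transcripts change when a core subunit of ESCRT-I, a complex that sorts ubiquitinated membrane proteins into endosomal vesicles bound for the lysosome, is depleted. All cells were transfected by lipofection with 30 nM siRNA and collected 72 h later, so that the controls carried siRNA as well. The 6 groups were 2 nontargeting siRNAs (siCtrl#1, the reference, and siCtrl#2), 2 siRNAs against TSG101 (siTsg101#1 and siTsg101#2) and 2 against VPS28 (siVps28#1 and siVps28#2), each with 3 replicates that the submitters call biological, in 18 libraries. The replicate number is also the batch in the labels, and each batch holds 1 library of every group. The siRNA groups are bulk cultures of 1 line, in which fewer cells expressing a gene and less RNA per cell cannot be told apart.

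Fatty acid and sterol synthesis are both under the control of the SREBP transcription factors. These are made as membrane proteins of the endoplasmic reticulum, where SCAP and the INSIG proteins hold them when sterols are plentiful, and they are released in the Golgi by the proteases encoded by MBTPS1 and MBTPS2 when sterols run low. The product of SREBF2 acts mainly on cholesterol synthesis and uptake and that of SREBF1 mainly on fatty acid synthesis. SREBF1, FASN and SCD are also targets of the oxysterol receptors LXR. Promoters of SREBP targets usually hold CCAAT boxes or GC boxes, at which the factors NF-Y and Sp1 act together with SREBP.

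The stretches upstream of 3 of the fatty acid genes and of HMGCS1, the sterol arm gene with the largest change, are printed to show how far the letters near the start sites are alike in the arms. They are the 250 bases before a RefSeq transcript start in GRCh38.p14, 5′ to 3′ on the strand of the gene, with every CCAAT on either strand in capitals. They lie at chr10:100346983-100347232 (SCD, plus strand), chr17:41919023-41919272 (ACLY, minus strand), chr4:110198616-110198865 (ELOVL6, minus strand) and chr5:43313413-43313662 (HMGCS1, minus strand).
SCD: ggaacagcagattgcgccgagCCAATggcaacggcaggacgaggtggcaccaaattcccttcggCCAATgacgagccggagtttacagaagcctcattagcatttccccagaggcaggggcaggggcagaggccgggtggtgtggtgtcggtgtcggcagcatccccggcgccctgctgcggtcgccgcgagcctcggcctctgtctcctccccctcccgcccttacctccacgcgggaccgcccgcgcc
ACLY: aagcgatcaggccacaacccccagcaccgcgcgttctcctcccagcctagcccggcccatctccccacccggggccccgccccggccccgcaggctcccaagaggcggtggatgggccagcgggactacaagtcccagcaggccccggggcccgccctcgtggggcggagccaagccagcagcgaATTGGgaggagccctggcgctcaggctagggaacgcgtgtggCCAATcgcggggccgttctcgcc
ELOVL6: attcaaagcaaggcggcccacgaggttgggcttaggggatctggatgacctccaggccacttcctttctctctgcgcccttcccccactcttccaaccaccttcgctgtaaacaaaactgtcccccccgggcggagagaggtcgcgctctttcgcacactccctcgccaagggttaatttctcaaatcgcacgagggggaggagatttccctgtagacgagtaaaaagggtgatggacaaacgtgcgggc
HMGCS1: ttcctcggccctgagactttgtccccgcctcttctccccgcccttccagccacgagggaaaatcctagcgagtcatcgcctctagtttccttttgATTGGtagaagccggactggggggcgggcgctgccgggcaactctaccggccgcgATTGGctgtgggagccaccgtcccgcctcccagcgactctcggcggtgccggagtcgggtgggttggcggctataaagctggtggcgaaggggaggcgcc
The stretches of SCD, ACLY and HMGCS1 hold 2 CCAAT each and that of ELOVL6 holds 0. Over windows of 300 bases, 250 before and 50 after each start, 8 of the 9 fatty acid genes and 15 of the 20 sterol arm genes had an entry. FASN was the fatty acid gene without an entry, and the 8 include ACSS2, ME1 and FADS1, which could not be tested. CCAAT on either strand was present in at least 1 window of 5 of these 8 fatty acid genes and of 13 of these 15 sterol arm genes, against 34.61% of all 35116 windows. The GC box GGGCGG was present for 8 of 8 fatty acid genes and 14 of 15 sterol arm genes, against 44.95% of windows, and matches of CCAAT and GGGCGG can share letters. The E-box CACGTG was present for 0 and 2 genes (7.26% of windows), and a form of the sterol regulatory element, TCACNCCAC, for 0 and 0 genes (1.13% of windows). Genes with several starts had more than 1 window, which raises their counts against a share of single windows. These matches describe the letters of these windows only.

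The libraries held from 2561790 to 7466916 counted reads. The siRNA targets fell as labelled, by log2 fold changes of -5.10 to -4.07 (edgeR, adjusted p between 4.7e-12 and 1.5e-09). TSG101 stood at 118 ± 40.1 normalized CPM (the count scaled by library size and TMM, SD, n = 3) with siCtrl#1 and at 3.90 ± 0.761 and 3.43 ± 1.36 with siTsg101#1 and siTsg101#2. VPS28 stood at 103 ± 13.3 with siCtrl#1 and at 5.68 ± 2.15 and 6.11 ± 1.17 with siVps28#1 and siVps28#2. Of 9 epithelial and colorectal markers, KRT8, KRT18, EPCAM and CDX2 were measured, CDH1 was at 0 and the other 4 had at most 6 counts in all. The summed level of these 9 was 127 to 166 normalized CPM in the control libraries and 94.2 to 145 in the on-target libraries. Averaged over the 4 on-target siRNAs, KRT8 was called down (-0.69, adjusted p = 0.0127) and EPCAM up (0.65, adjusted p = 0.0382), and EPCAM was also called between the controls (1.02, adjusted p = 0.0473, all from edgeR). Markers of fibroblasts (summed level at most 1.54 normalized CPM in any library), endothelium (at most 0.525) and adipocytes (at most 0.332) were at or near 0. The leukocyte markers CD3E, LYZ and PTPRC were at 0 in all libraries, while CD68, which also marks lysosomes of other cells, ranged from 515 to 721 normalized CPM with siCtrl#1 and from 782 to 1050 with siCtrl#2. With on-target siRNAs it reached 1670 (siTsg101#1) and 1620 (siVps28#2), and was called up in the mean (0.89, edgeR adjusted p = 6.86e-05) and with 3 of the 4, but not with siVps28#1 (0.29, edgeR adjusted p = 0.312). The part of these markers in the results was not tested.

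Averaged over the 4 on-target siRNAs, FASN and ACACA rose and FADS2 fell relative to siCtrl#1, ELOVL6 was lower by slightly less than 1.5-fold, and ACLY and SCD did not pass the test. Of the 19 tested enzymes of the sterol arm, 13 rose and 0 fell. FASN, the fatty acid synthase, was 1.62-fold and ACACA, the acetyl-CoA carboxylase that makes its malonyl-CoA substrate, 1.61-fold higher, and FADS2, the delta-6 desaturase of polyunsaturated fatty acids, was at 0.609 of its level with siCtrl#1. A gene was called here when edgeR's quasi-likelihood test gave a Benjamini-Hochberg adjusted p under 0.05 over all 10212 tested genes and the change was at least 1.5-fold. In this comparison, 8.56% of all tested genes were called up and 6.54% down, and 2 of the 6 fatty acid genes were called up and 1 down. The median log2 fold change of the 6 genes was 0.20, of the 19 sterol arm genes 1.21 and of all tested genes -0.0035.

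**Figure D1:**
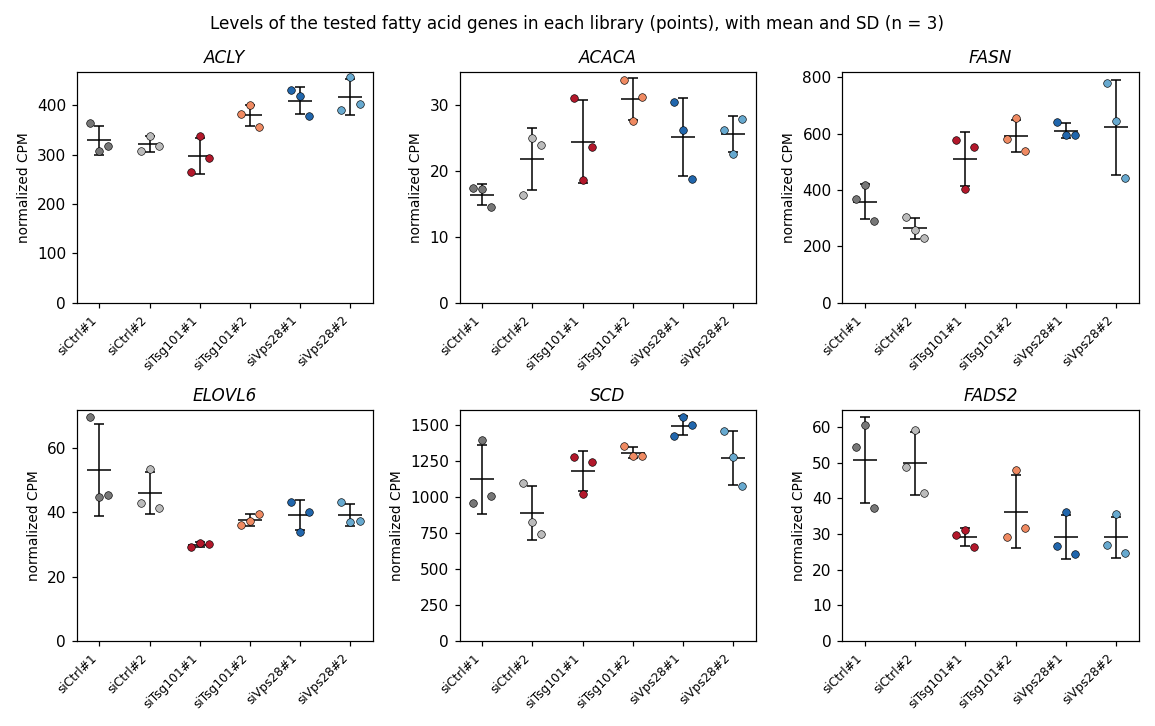
Normalized CPM (vertical axes, from 0) of the 6 tested fatty acid genes in each of the 18 libraries (points, by siRNA group), with the mean and SD of the 3 libraries of a group (bars). Of the 12 on-target libraries, 11 were above all controls for FASN, 11 below all controls for FADS2 and 12 below siCtrl#1 for ELOVL6, while 4 were above all controls for SCD.

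FASN (ENSG00000169710) lies on the minus strand of chromosome 17 of GRCh37, from 80036214 to 80056170, and no other annotated exon overlaps it. Its levels in replicates 1, 2 and 3 were 369, 417 and 291 normalized CPM with siCtrl#1 and 303, 257 and 230.3 with siCtrl#2. They were 578, 402 and 554 with siTsg101#1 and 581, 654 and 539.9 with siTsg101#2, and 641, 594 and 595 with siVps28#1 and 778, 644 and 442 with siVps28#2. Of the 12 on-target libraries, 11 lay above all 6 control libraries, and replicate 2 of siTsg101#1 lay within the range of siCtrl#1. The log2 fold change against siCtrl#1 was 0.51 (standard error, SE, 0.19, edgeR adjusted p = 0.0511) with siTsg101#1 and 0.72 (0.19, 0.00926) with siTsg101#2. For siVps28#1 the value was 0.77 (0.19, 0.0122) and for siVps28#2 0.79 (0.19, 0.00578). The first of these missed both thresholds, and the mean over the 4 siRNAs was 0.70 (SE 0.16, edgeR adjusted p = 0.00232). Compared within the same replicate number, the mean of the 4 on-target libraries was above siCtrl#1 in all 3 batches, by 0.43 to 0.86. Without siCtrl#1 replicate 3, the lowest of its group, the mean change was 0.56 (edgeR adjusted p = 0.0354), which is under 1.5-fold.

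ACACA (ENSG00000278540, chromosome 17 of GRCh37, 35441927 to 35766927, minus strand, no overlap with other exons) was measured with 56 to 217 counts per library. It stood at 17.4, 17.2 and 14.5 normalized CPM in replicates 1 to 3 of siCtrl#1 and at 16.4, 25.0 and 23.9 with siCtrl#2. It stood at 31.1, 18.6 and 23.6 with siTsg101#1 and 33.9, 27.6 and 31.2 with siTsg101#2, and at 30.5, 26.2 and 18.8 with siVps28#1 and 26.1, 22.6 and 27.9 with siVps28#2. All 12 on-target libraries lay above the 3 siCtrl#1 libraries, as they did for 5.87% of all tested genes, but only 8 of them lay above all 6 controls. The log2 fold change was called with siTsg101#2 (0.92, SE 0.21, edgeR adjusted p = 0.00369) and siVps28#2 (0.65, SE 0.22, edgeR adjusted p = 0.0443). It was 0.56 with siTsg101#1 and 0.62 with siVps28#1, which missed the threshold (edgeR adjusted p = 0.0646 and 0.0831), and the mean of the 4 was 0.69 (SE 0.18, edgeR adjusted p = 0.00717). This call depended on the reference: ACACA was 0.42 higher with siCtrl#2 than with siCtrl#1 (edgeR adjusted p = 0.394), and against siCtrl#2 its mean change was 0.27 (edgeR adjusted p = 0.314). Without siCtrl#1 replicate 3 the mean change was 0.59 (edgeR adjusted p = 0.0590).

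FADS2 (ENSG00000134824, chromosome 11 of GRCh37, 61560452 to 61634826, plus strand) shares 490 exon bases with its neighbour FADS1 on the opposite strand and 49 with FEN1 on the same strand. Whether its amplicon lies in these bases was not checked, and the strand setting of the counting is not given in the sources used here. Any reads of the shared bases cannot be assigned to either gene. FADS2 stood at 54.4, 60.6 and 37.4 normalized CPM in replicates 1 to 3 of siCtrl#1 and at 48.8, 59.2 and 41.4 with siCtrl#2. With siTsg101#1 it stood at 29.9, 31.2 and 26.2, with siTsg101#2 at 29.2, 48.0 and 31.7, with siVps28#1 at 26.7, 36.3 and 24.5 and with siVps28#2 at 26.8, 35.7 and 24.6. Replicate 2 of siTsg101#2 lay within the range of the controls and the other 11 on-target libraries lay below all 6 of them. Replicate 2 was the highest library of all 6 groups, a pattern in which the same replicate number led every group for 2.79% of tested genes. FADS2 was called down with siTsg101#1 (-0.80, SE 0.23, adjusted p = 0.0111), siVps28#1 (-0.79, 0.23, 0.0278) and siVps28#2 (-0.80, 0.22, 0.0153, all from edgeR). With siTsg101#2 its log2 fold change was -0.48 (SE 0.22, edgeR adjusted p = 0.127), and the mean of the 4 was -0.72 (SE 0.17, edgeR adjusted p = 0.00316). It was lower than siCtrl#1 in each batch, at log2 differences of -0.94 to -0.48, and lower than siCtrl#2 in each batch, at -0.78 to -0.63. Without siCtrl#1 replicate 2, the mean change was -0.58 (edgeR adjusted p = 0.0476), just under 1.5-fold. FADS1, which encodes the delta-5 desaturase that follows FADS2 in the same pathway, had 0 to 5 counts per library, and its counts were too few for any comparison.

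ELOVL6 (ENSG00000170522, chromosome 4 of GRCh37, 110967002 to 111120355, minus strand, 240 exon bases under an antisense gene), the elongase that extends palmitate to stearate, was measured with 71 to 307 counts per library. It stood at 69.6, 44.6 and 45.1 normalized CPM in replicates 1 to 3 of siCtrl#1, at 42.9, 53.5 and 41.2 with siCtrl#2, at 29.1, 30.4 and 30.2 with siTsg101#1 and at 35.9, 37.4 and 39.4 with siTsg101#2. With siVps28#1 it stood at 43.3, 33.9 and 40.1 and with siVps28#2 at 43.0, 36.8 and 37.1. All 12 on-target libraries lay below the 3 siCtrl#1 libraries, as they did for 4.84% of all tested genes, and 10 lay below all 6 controls. ELOVL6 was called down with siTsg101#1 (-0.83, SE 0.18, edgeR adjusted p = 0.00163). With siTsg101#2 it was -0.50 (adjusted p = 0.0440), with siVps28#1 -0.45 (adjusted p = 0.125) and with siVps28#2 -0.45 (adjusted p = 0.0907, all from edgeR), none of which was called. The mean change was -0.55 (SE 0.14, edgeR adjusted p = 0.00421), past the threshold of p but not of size. The level of siCtrl#1 rests on its replicate 1, without which the mean change was -0.31 (edgeR adjusted p = 0.145). Without replicate 2 or 3 of siCtrl#1 it was -0.67 in either case (edgeR adjusted p = 0.00474 and 0.00469) and was called down, and against siCtrl#2 it was -0.34 (edgeR adjusted p = 0.0946).

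SCD, the delta-9 desaturase that makes oleate and the most counted of these genes (3115 to 8952 counts per library), lies on the plus strand of chromosome 10 of GRCh37, from 102106990 to 102124583 (ENSG00000099194). Of its transcript, 16.6% is shared with other loci, among them its pseudogene SCDP1, so that its reads may be split if its amplicon lies there. It stood at 959, 1397 and 1006 normalized CPM in replicates 1 to 3 of siCtrl#1 and at 1098, 823 and 741 with siCtrl#2. It stood at 1275, 1023 and 1243 with siTsg101#1 and at 1353, 1286 and 1280.2 with siTsg101#2, and at 1423, 1555 and 1497 with siVps28#1 and 1454, 1278 and 1077 with siVps28#2. Only 4 of the 12 on-target libraries, all of them from the siVps28 groups, lay above every control, and 3 of these were the siVps28#1 libraries. None of the 4 changes was called: they were 0.075, 0.22, 0.41 and 0.18 in the order of siTsg101#1, siTsg101#2, siVps28#1 and siVps28#2, with adjusted p between 0.140 and 0.785 (edgeR), and the mean was 0.22 (95% interval -0.060 to 0.51). Without siCtrl#1 replicate 2, the highest control library, the mean change was 0.41, and without siCtrl#1 replicate 1 it was 0.12. SCD was 0.34 lower with siCtrl#2 than with siCtrl#1 (edgeR adjusted p = 0.369), so that its mean change against siCtrl#2 was 0.56 (edgeR adjusted p = 0.00773), still under 1.5-fold. With siVps28#1 alone SCD was called up against siCtrl#2 (0.75, edgeR adjusted p = 0.0100).

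ACLY (ENSG00000131473, chromosome 17 of GRCh37, 40023170 to 40086795, minus strand, 156 exon bases under an antisense gene), which cleaves citrate to cytosolic acetyl-CoA, was not called with any siRNA. It stood at 363, 308 and 318 normalized CPM with siCtrl#1, at 307, 339 and 317 with siCtrl#2, at 265, 337 and 293 with siTsg101#1 and at 383, 399.8 and 357 with siTsg101#2. With siVps28#1 it stood at 431, 418 and 379 and with siVps28#2 at 390.1, 458 and 402. Of the 12 on-target libraries, 8 lay above all controls and 2, both with siTsg101#1, below them. The log2 fold change was -0.14 with siTsg101#1 and 0.20 with siTsg101#2, whereas siVps28#1 gave 0.31 and siVps28#2 0.34 (adjusted p between 0.111 and 0.482 from edgeR), and their mean was 0.18 (95% interval -0.053 to 0.41). ACSS2 (ENSG00000131069), which makes acetyl-CoA from acetate, had 1 to 8 counts in each library. ME1 (ENSG00000065833), the cytosolic malic enzyme, had 0 counts in all 18 libraries. A count of 0 allows 3 counts, which is up to 0.402 to 1.17 CPM depending on the library, and covers counting error only. The files do not show whether the ME1 amplicon works, and without a working amplicon neither the 0 nor this limit would describe the transcript.

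**Figure D2:**
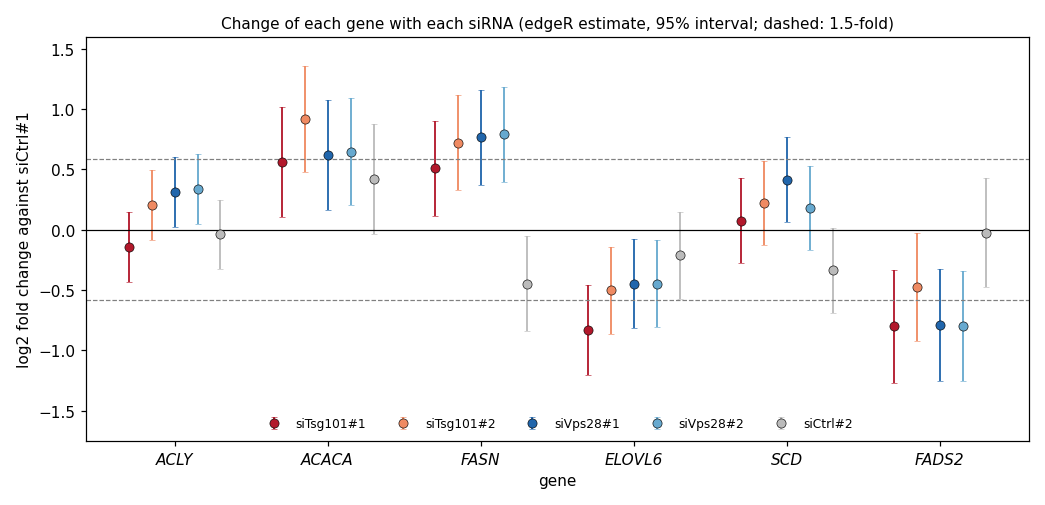
Log2 fold change against siCtrl#1 (vertical axis) of each tested fatty acid gene with each on-target siRNA and with siCtrl#2 (colours), as edgeR estimates (points) with 95% intervals (bars). Dashed lines mark 1.5-fold. FASN and ACACA lay above 0 with all 4 on-target siRNAs and FADS2 and ELOVL6 below, while siCtrl#2 lay at -0.45 for FASN and at 0.42 for ACACA.

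Counted by siRNA, each fatty acid gene was called with at most 3 of the 4 on-target siRNAs, and all of these comparisons share the siCtrl#1 libraries. With siTsg101#1, 0 of the 6 genes were called up (11.8% of all tested genes) and 2, ELOVL6 and FADS2, down (10.1%). At an unadjusted p under 0.05, edgeR had 2 genes up with this siRNA, and DESeq2 called 0. With siTsg101#2, FASN and ACACA were called up (10.4%) and 0 genes down (6.66%), or 2 down at an unadjusted p under 0.05 and 0 by DESeq2. With siVps28#1, FASN was called up (4.92%) and FADS2 down (3.76%). With siVps28#2, FASN and ACACA were called up (7.09%) and FADS2 down (6.23%). No fatty acid gene was called the same way with every on-target siRNA, by edgeR or by DESeq2, against 2.59% of all tested genes up and 1.54% down. At an unadjusted p under 0.05 in edgeR, FASN and ACACA were higher and ELOVL6 and FADS2 lower with all 4. FASN came nearest upward, with 3 siRNAs, and FADS2 downward, also with 3.

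Ordered by their means, most neighbouring groups overlapped. FASN was highest with siVps28#2 (622 ± 169 normalized CPM, SD, n = 3), then siVps28#1 (610.1 ± 26.6), siTsg101#2 (592 ± 57.9) and siTsg101#1 (511 ± 95.2), and lowest with siCtrl#1 (359 ± 63.7) and siCtrl#2 (264 ± 36.8). FADS2 was highest with siCtrl#1 (50.8 ± 11.97) and siCtrl#2 (49.8 ± 8.92), followed by siTsg101#2 (36.3 ± 10.2), while the other 3 groups had means between 29.0 and 29.2. For FASN, ACACA, ACLY and FADS2, every group overlapped the next in this order in its range of libraries. The exceptions were siTsg101#2 over siTsg101#1 for ELOVL6 (37.5 ± 1.76 against 29.9 ± 0.728) and siVps28#1 over siTsg101#2 for SCD (1492 ± 66.3 against 1306 ± 40.5), in which the ranges did not overlap. The SCD difference was not tested. How often neighbouring groups stand apart over all tested genes was not worked out, so neither pair is read as a difference. The direct test of siTsg101#1 against siTsg101#2 gave -0.33 for ELOVL6 (edgeR adjusted p = 0.298).

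No fatty acid gene was called between the controls, between the depletions or between siRNAs against the same subunit. In siCtrl#2 against siCtrl#1, 2.09% of all tested genes were called, and 0 of the 6 (1, FASN, at an unadjusted p under 0.05 in edgeR, and 0 by DESeq2). FASN was -0.45 in this comparison (95% interval -0.84 to -0.050, edgeR adjusted p = 0.272). In Tsg101 depletion against Vps28 depletion, 6.23% of tested genes were called and 0 of the 6 (1, ACLY, at an unadjusted p under 0.05, and 0 by DESeq2). ACLY stood at -0.30 after Tsg101 depletion relative to Vps28 depletion (95% interval -0.50 to -0.091, edgeR adjusted p = 0.0528). In DESeq2 it passed the threshold of p (-0.30, adjusted p = 0.0154) but not of size. The 95% intervals of the difference between the depletions were -0.44 to 0.11 for FASN, -0.20 to 0.42 for ACACA, -0.17 to 0.48 for FADS2, -0.48 to 0.043 for ELOVL6 and -0.40 to 0.10 for SCD. Differences within these intervals were not excluded. Between siTsg101#1 and siTsg101#2, 6.99% of tested genes were called and 0 of the 6 (1, ACLY, at an unadjusted p under 0.05, and 0 by DESeq2), although all 6 genes were lower with siTsg101#1 (log2 differences of -0.36 to -0.15). Between siVps28#1 and siVps28#2, 0.48% of tested genes were called and 0 of the 6 (0 at an unadjusted p under 0.05 and 0 by DESeq2).

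**Figure D3:**
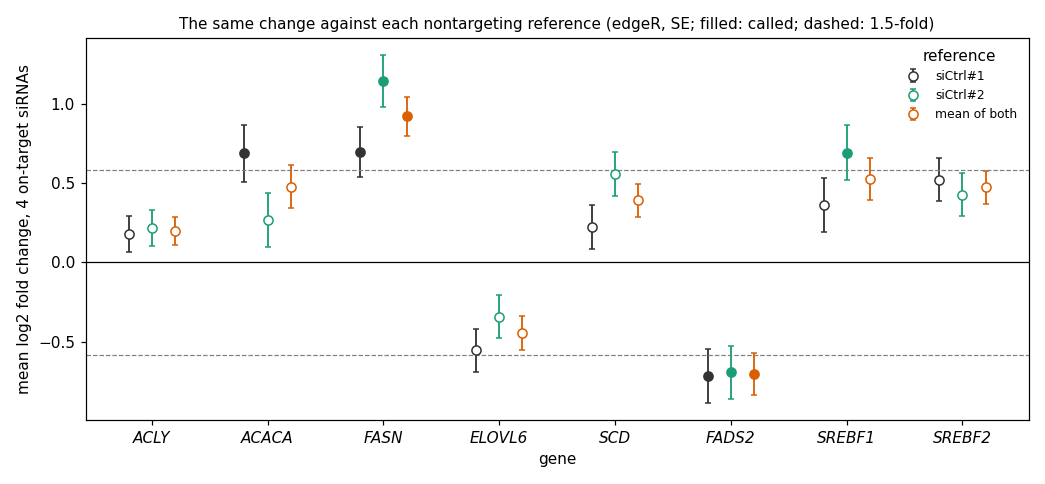
Mean of the log2 fold changes with the 4 on-target siRNAs (vertical axis) of the tested fatty acid genes, SREBF1 and SREBF2 against siCtrl#1, siCtrl#2 or the mean of both (colours), as edgeR estimates with SE (bars). Filled points were called and dashed lines mark 1.5-fold. Against siCtrl#1 and siCtrl#2, FADS2 stood at -0.72 and -0.69, FASN at 0.70 and 1.14, and ACACA at 0.69 and 0.27.

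The calls of several of these genes changed with the nontargeting siRNA taken as the reference. No share of all tested genes was worked out for the other references, so these calls have no such share beside them. Against siCtrl#2, FASN was called up with all 4 on-target siRNAs, by 0.96 to 1.24, and the mean of the 4 was 1.14 (SE 0.16, edgeR adjusted p = 3.53e-05). ACACA was called with 0 of them, at 0.14 to 0.50. FADS2 was called down with siTsg101#1 (-0.78) and siVps28#2 (-0.77), at -0.77 with siVps28#1 (edgeR adjusted p = 0.0503), and the mean of the 4 was -0.69 (edgeR adjusted p = 0.00600). Against the mean of both controls, FASN (0.92, adjusted p = 4.45e-06) and FADS2 (-0.70, adjusted p = 3.14e-04, both from edgeR) were called. ACACA (0.48, adjusted p = 0.00977), SCD (0.39, 0.0076) and ELOVL6 (-0.45, 0.00284, all from edgeR) passed the threshold of p but were under 1.5-fold. Besides FASN and FADS2, the calls against siCtrl#2 were SCD up with siVps28#1 and ELOVL6 down with siTsg101#1 (-0.61, edgeR adjusted p = 0.0192).

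All called genes of the sterol arm were up, whereas those of the fatty acid genes went both ways. Its 8 mevalonate and isoprenoid enzymes had a median log2 fold change of 1.17 over the 4 siRNAs, and its 11 tested enzymes from squalene to cholesterol had a median of 1.36. Of its 19 tested genes, 13 were called up in the mean comparison and the same number with all 4 siRNAs, and 0 were called down (0 at an unadjusted p under 0.05 in edgeR, and 0 by DESeq2). Among these 13, CYP51A1 and HSD17B7 share 92.2% and 87.6% of their transcripts with other loci, so that their reads may be split if the amplicons lie there. The largest change was that of HMGCS1, the cytosolic HMG-CoA synthase (3.27, SE 0.16, edgeR adjusted p = 3.49e-12), of whose exon bases 2497 overlap an antisense gene. HMGCS1 was also called up with siCtrl#2 against siCtrl#1 (0.77, edgeR adjusted p = 0.0186), and against siCtrl#2 its mean change was 2.50 (edgeR adjusted p = 1.51e-10). The middle was ACAT2, the cytosolic thiolase (1.21, edgeR adjusted p = 7.98e-05), and the smallest PMVK, the phosphomevalonate kinase (-0.23, edgeR adjusted p = 0.446). FASN had the highest mean change upward of the fatty acid genes against siCtrl#1, at 0.70. With this reference it lay below each of the 13 called sterol arm genes, the lowest of which was MVD at 1.10. This order depended on the reference, as FASN was at 1.14 against siCtrl#2. CYP51A1, FDFT1 and SQLE, at 1.12, 1.55 and 1.72 against siCtrl#1, were 0.43, 0.56 and 0.61 higher with siCtrl#2 than with siCtrl#1 (none called). Against siCtrl#2 they thus lay below FASN, while the others of the 13 stayed above it. No test of 1 list against the other was made, as the lists were chosen with earlier results known.

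**Figure D4:**
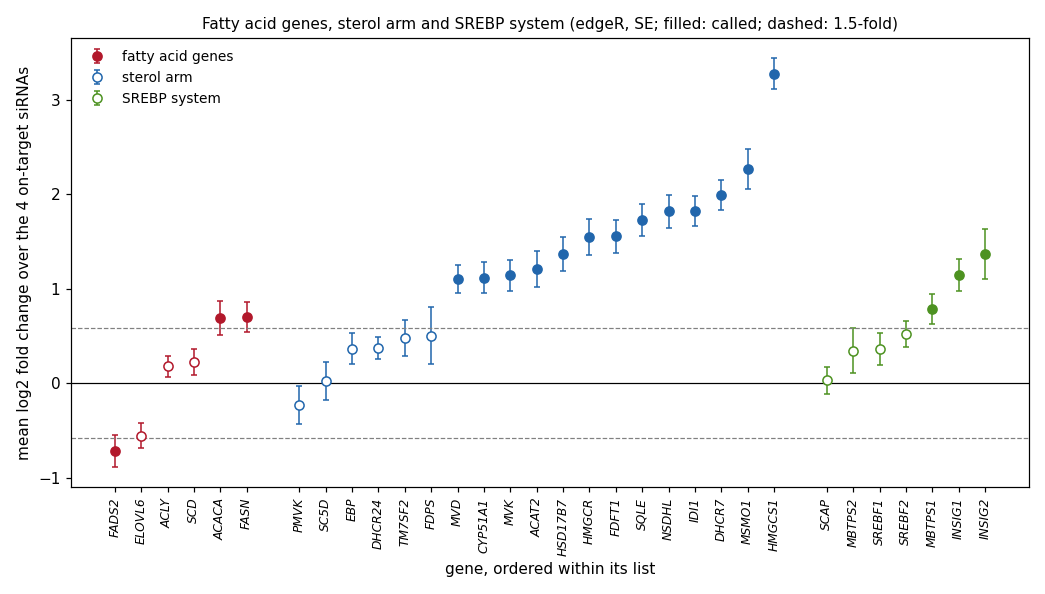
Mean of the log2 fold changes with the 4 on-target siRNAs against siCtrl#1 (vertical axis) for the 6 tested fatty acid genes, the 19 tested sterol arm genes and 7 genes of the SREBP system (colours), ordered within each list, as edgeR estimates with SE (bars). Filled points were called and dashed lines mark 1.5-fold. The fatty acid genes lay between -0.72 and 0.70 and the sterol arm genes between -0.23 and 3.27.

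Taken library by library, the lists stood apart in every on-target library. With the log2 levels of each gene set relative to its siCtrl#1 mean and averaged over a list, the 6 fatty acid genes lay between -0.19 and 0.27 in the 12 on-target libraries, a range that overlapped the -0.21 to 0.10 of siCtrl#1 and the -0.22 to 0.0070 of siCtrl#2. The 19 sterol arm genes lay between 0.91 and 1.43 in the on-target libraries, above all controls, whose highest value was 0.19. The sterol arm thus exceeded the fatty acid genes by 0.85 to 1.38 in each on-target library, by -0.063 to 0.11 with siCtrl#1 and by 0.18 to 0.36 with siCtrl#2. The average of the fatty acid genes hides opposite directions, as 2 of the 6 were lower and 4 higher in the mean comparison.

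**Figure D5:**
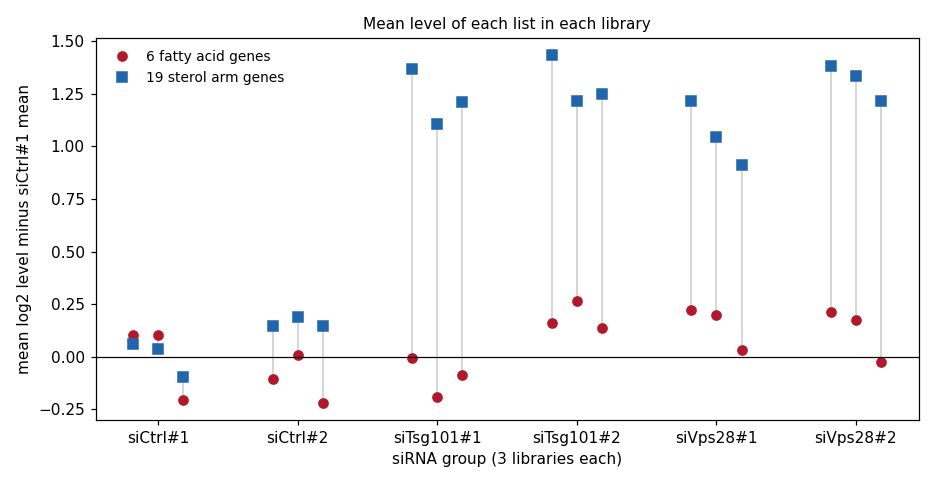
Mean log2 level relative to siCtrl#1 (vertical axis) of the 6 tested fatty acid genes (circles) and the 19 tested sterol arm genes (squares) in each library, joined by a line, by siRNA group (horizontal axis). The circles lay between -0.22 and 0.27 in all libraries, and the squares of the on-target libraries between 0.91 and 1.43.

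Of the 8 genes of the SREBP system itself, 4 were called up in the mean comparison, against 8.56% of all tested genes. The other 4 were not called. SREBF1 was 0.36 higher (SE 0.17, edgeR adjusted p = 0.127) and was called with siTsg101#2 alone (0.60, edgeR adjusted p = 0.0416). The other siRNAs gave 0.55 (siTsg101#1), 0.19 (siVps28#1) and 0.11 (siVps28#2), and the difference of 0.42 between the depletions had an adjusted p of 0.0596 (edgeR). Against siCtrl#2 SREBF1 was called up, at 0.69 (edgeR adjusted p = 0.00805). SREBF2 was 0.52 higher (SE 0.14, edgeR adjusted p = 0.00726), under 1.5-fold, in all 3 batches by 0.46 to 0.56. By siRNA, SREBF2 was called with siVps28#1 alone (0.59, edgeR adjusted p = 0.0261). The other siRNAs gave 0.38 (siTsg101#1, adjusted p = 0.102), 0.56 (siTsg101#2, 0.0208) and 0.56 (siVps28#2, 0.0240, all from edgeR). INSIG1 (1.15, adjusted p = 3.11e-05) and INSIG2 (1.36, adjusted p = 5.09e-04, both from edgeR), which retain SREBP in the endoplasmic reticulum, were called up. MBTPS1 was called up as well (0.78, adjusted p = 0.00103), but it was also called with siCtrl#2 against siCtrl#1 (0.91, adjusted p = 0.0123), and against siCtrl#2 its mean change was -0.13 (adjusted p = 0.619, all from edgeR). SCAP (0.030, adjusted p = 0.907) and MBTPS2 (0.35, adjusted p = 0.324, both from edgeR) were not called. By siRNA, MBTPS2 stood at -0.39 (siTsg101#1), 0.69 (siTsg101#2), 0.59 (siVps28#1) and 0.49 (siVps28#2). With siCtrl#2 it stood 0.65 above siCtrl#1 (edgeR adjusted p = 0.298). SREBF1 was counted on 1 target, so that its isoforms could not be told apart, and 556 of its exon bases and 731 of those of SREBF2 overlap antisense genes.

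Among 27 other genes around fatty acid synthesis, 20 could be tested, with a median of 0.094 in the mean comparison. Of these 20, 4 were called up and 2 down, against 8.56% and 6.54% of all tested genes. Of the supply of precursors and NADPH, PGD (0.63) and ME2 (1.65), the mitochondrial malic enzyme, were called up in the mean and ACSS1 (-0.87), the mitochondrial acetyl-CoA synthetase, down. ME2 differed between the depletions by 1.63 (edgeR adjusted p = 9.37e-06), at 22.99 ± 2.89 and 27.3 ± 1.53 normalized CPM with the siTsg101 siRNAs against 7.17 ± 3.15 and 9.23 ± 1.83 with the siVps28 siRNAs and 4.27 ± 2.66 with siCtrl#1. Among 4 tested genes of cytosolic and mitochondrial synthesis, OXSM, the mitochondrial ketoacyl synthase, had the smallest p and was not called (-0.28, edgeR adjusted p = 0.139). Of 9 tested genes of elongation and desaturation, SCD5, the other human delta-9 desaturase, was called down with all 4 siRNAs, at -0.92 to -0.61 (mean -0.73, SE 0.14, edgeR adjusted p = 3.60e-04). HSD17B12, the ketoacyl-CoA reductase of elongation, was called up (0.67), but shares 20.5% of its transcript with other loci. ELOVL5 was listed at 0 in all libraries, and whether its amplicon works is not shown by the files either, so that its level is unknown.

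Of 14 tested genes that activate fatty acids or build glycerolipids, 2 were called up and 1, GPAM, down (-0.69). Of all tested genes, 8.56% were called up and 6.54% down. ACSL3 (mean 1.05, adjusted p = 5.45e-04) and ACSL5 (mean 0.87, adjusted p = 0.00303, both from edgeR), which couple fatty acids to coenzyme A, were called with all 4 siRNAs. For ACSL3, siCtrl#2 itself stood 0.81 above siCtrl#1 (edgeR adjusted p = 0.0820). Of 17 tested genes of fatty acid oxidation, 1 was called up and 1, HADH, down (-0.65), and the median was 0.048. These counts are near the shares of all tested genes. Of 4 tested LXR targets other than the fatty acid genes, ABCA1, the cholesterol exporter, was called up (1.94, edgeR adjusted p = 5.65e-04), on counts of 2 to 6 in the siCtrl#1 libraries and of 8 to 47 in the on-target ones, and the median was -0.043. ABCA1 was called with 3 of the siRNAs but not with siVps28#2 (0.79, edgeR adjusted p = 0.298), and siVps28#1 and siVps28#2 differed by 1.78 (edgeR adjusted p = 0.0237). Antisense genes overlap 403 exon bases of ACSL3 and 366 of ACSL5. Any reads of these bases could not be told apart, and whether the amplicons lie there was not checked.

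By the root mean square difference of the log2 fold changes over the 5 comparisons with siCtrl#1, the tested genes with the pattern most like that of FASN were IKZF3 (0.098), TALDO1 (0.11) and GSR (0.15). Those most like FADS2 were NCAPD2 (0.084), CCNB1 (0.087) and IRF2BPL (0.091). These distances describe likeness of pattern over the same libraries only.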

How the data were processed

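RNA of 18 libraries from 6 siRNA groups was measured by Ion AmpliSeq, a panel with 1 amplicon target per gene, on an Ion Proton. The deposited values are whole-number counts per target. The authors made them with HTSeq 0.6.0 from reads aligned to an AmpliSeq transcriptome reference for hg19 (the submitters' processing notes also name DESeq2 1.18.1). The strand setting of the counting is not given in the sources used here. Exon overlaps and shared stretches bear on a count only where the amplicon lies in them, which was not checked. Of the reads, 45.4 to 46.68% were counted on genes, 48.23 to 49.07% had no feature and 4.71 to 5.68% were of low quality, and reads of no gene stayed out of library sizes. RefSeq identifiers were matched to symbols for 20228 of 20802 targets. All 18 libraries were fitted together with edgeR 4.0.16 in R 4.3.3 (quasi-likelihood test, TMM), for the 10212 genes with more than 100 counts in all that remained after 420 noncoding identifiers were left out. Calls needed an adjusted p under 0.05 (Benjamini-Hochberg over all tested genes) and at least 1.5-fold. List levels per library were log2(CPM + 0.5). The fit was tested on simulated data. Levels were compared only within a gene, since amplicons differ in yield. P-values rest on the spread between the 3 replicates within groups, estimated over the 6 groups together. They do not cover the spread between siRNAs, and all cultures are of 1 cell line.

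Members and lists were chosen with earlier results of these data known. The genes named were the 9 members, TSG101, VPS28, the SREBP system, the largest, middle and smallest changes of the sterol arm, the genes of each other list called with all 4 on-target siRNAs (or that with the smallest p), and the 3 genes nearest in pattern to the members with the largest and smallest mean change. ME2, PGD, ACSS1, HSD17B12, ELOVL5, GPAM, HADH, MVD, CYP51A1, HSD17B7, FDFT1, SQLE and the markers fall outside this rule and were named after their values were seen. A few genes of these lists are not reported here. Samples of the same replicate number share a batch in the labels, and over 45 same-numbered pairs their deviations from the group means correlated at 0.15 on average (-0.15 to 0.39), so that a fit with the replicate number as a block was an alternative. The others were DESeq2 1.42.0, its size factors, no filter or a stricter filter on counts, noncoding identifiers kept, siCtrl#2 or both controls as the reference, the adjusted p alone, fits of the compared groups only, and leaving out each library in turn. Overlaps of exons and sequence shared between transcripts were taken from GENCODE on GRCh37, and promoter windows from RefSeq on GRCh38.p14.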

Additional observations from a re-analysis of the deposited data

Results flagged for a closer look

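Among the genes of the SREBP system, 3 differed within the on-target siRNAs by a direct test. INSIG2 was higher after Tsg101 depletion than after Vps28 depletion, by 0.68 on the log2 scale (edgeR, adjusted p = 0.0216). INSIG1 was lower with siTsg101#1 than with siTsg101#2, at -0.76 (edgeR, adjusted p = 0.0181), although it was called up against siCtrl#1 with both, at 0.73 and 1.48. MBTPS2 was lower with siTsg101#1 than with siTsg101#2, at -1.08 (edgeR, adjusted p = 0.0274), and 1195 of its exon bases overlap another gene on the same strand. Of the other genes named, ME2 was higher after Tsg101 depletion than after Vps28 depletion, by 1.63 (edgeR, adjusted p = 9.37e-06). ABCA1 was higher with siVps28#1 than with siVps28#2, by 1.78 (edgeR, adjusted p = 0.0237), and CD68 lower, at -0.92 (edgeR, adjusted p = 0.00985). None of the 6 tested fatty acid genes was called in these comparisons by edgeR or DESeq2. ACLY had an unadjusted p under 0.05 in edgeR between the depletions and between the siTsg101 siRNAs. Between the depletions its adjusted p was 0.0154 in DESeq2 and 0.0377 in edgeR with the replicate block, at -0.30 in both, under 1.5-fold. Groups of 3 libraries were not searched for single outlying libraries.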

How the results depend on the processing

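The counts of called fatty acid genes depended on the reference and on single libraries of the controls and of the on-target groups. With siCtrl#2 as the reference, 1 gene was called up with siTsg101#1, 1 with siTsg101#2, 2 with siVps28#1 (0 down), 1 with siVps28#2, 1 in the mean comparison and 1 with all 4 siRNAs. With the mean of both controls, 1 gene was called up with siTsg101#1, 1 with siVps28#2, 1 in the mean comparison and 1 with all 4. Shares of all tested genes were taken with the main fit against siCtrl#1 only. The counts under other settings therefore have no such share beside them. With the adjusted p alone, 1 gene was called down with siTsg101#2 and 2 in the mean comparison. Leaving out each library in turn, the count in the mean comparison was 0 to 2 up (0 without siCtrl#1 replicate 3) and 1 to 2 down. It was 0 to 2 up (2 without siTsg101#1 replicate 2) and 1 to 2 down with siTsg101#1, 1 to 2 up and 0 to 2 down with siTsg101#2, 0 to 2 up (0 without siCtrl#1 replicate 3, 2 without siVps28#1 replicate 3) and 0 to 1 down with siVps28#1, 0 to 2 up (0 without siVps28#2 replicate 1) and 0 to 1 down with siVps28#2, and 0 to 1 in either direction with all 4. It was 0 throughout between the controls, the depletions and the siRNAs to 1 subunit. The sterol arm kept 13 to 14 genes up in the mean comparison, 0 down, and 12 to 13 with all 4. The mean log2 fold change was 0.56 to 0.81 for FASN, 0.59 to 0.73 for ACACA, 0.12 to 0.41 for SCD, -0.91 to -0.58 for FADS2 and -0.67 to -0.31 for ELOVL6 when libraries were left out. With the replicate block, the mean changes were 0.70 for FASN (edgeR, adjusted p = 7.32e-04) and -0.72 for FADS2 (edgeR, adjusted p = 8.76e-05), and the block changed no count of calls of the fatty acid genes. Of the alternatives, DESeq2, its size factors, the filters, noncoding identifiers and fits of the compared groups only moved no count by over 1.5 times, and 0 mean changes reversed. The cause of these shifts was not tested. ACSS2, FADS1 and ME1 had too few counts for a test, and 3 cultures per group limited the precision of every other gene.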
